A study of Mus musculus with 8 samples.

Results

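Libraries labelled as effector regulatory T (eTreg) cells without Blimp-1 were compared between the B16.OVA tumor and the spleen, although markers of the tumor libraries went against that label, as given below. The comparison used the 4 KO libraries of the 8 in the series, taken by their genotype and tissue labels: 2 from tumors and 2 from spleens. KO cells came from Prdm1fl/flFoxP3YFP-Cre mice and WT cells from FoxP3YFP-Cre mice. All 8 libraries came from tumor-bearing C57BL/6 mice, 5 to 10 weeks old, that received B16.OVA melanoma cells under the skin on day 0. NP-OVA was also injected into all of them, with CFA on day 0 and with IFA on day 7 (complete and incomplete Freund's adjuvant), and they were harvested before the tumor passed 1.5 cm3. The sorted population was CD45+CD44+YFP+CD4+CD3+, where YFP reports Foxp3. Cre was driven by the Foxp3 locus, so Prdm1 was deleted in cells that express or once expressed Foxp3. Spleen cells were enriched for CD4 with magnetic beads before the sort, whereas tumors were digested with enzymes for an hour and passed over a Ficoll gradient, so tissue and preparation cannot be told apart. The labels did not say whether the libraries of a group came from separate mice, so the p-values measure the spread between libraries, which may be technical.

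Regulatory T (Treg) cells are CD4 T cells that restrain immune responses, and the transcription factor Foxp3 holds their identity. Blimp-1, the product of Prdm1, is a repressor that marks Treg cells in their effector state and is known for supporting Il10 expression there. Treg cells in lymphoid organs recirculate through S1pr1 and include follicular cells that enter B cell zones through Cxcr5, whereas those in tumors are known for high Ctla4 and costimulatory receptors.

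Prdm1 itself was read first (chromosome 10, 44437177 to 44528501, GRCm38). It stood at 41.3 and 54.4 CPM (counts scaled to the library total) in KO spleen 1 and 2 and at 89.9 and 75.5 CPM in KO tumor 1 and 2. WT spleens held 53.9 and 20.3 CPM and WT tumors 109 and 193 CPM. The KO spleen values thus lay within or above the WT spleen values, and the KO tumor values lay below both WT tumor values. The counts were summed over all exons of the gene, including those outside the deleted part, so they do not check the deletion. Between KO tissues Prdm1 did not pass the test (log2 fold change 0.83, SE 0.26, edgeR quasi-likelihood adjusted p = 0.112).

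Counts on genes ranged from 27834676 to 43903859 per KO library, and 3 counts, taken as the floor of detection, correspond to 0.0655 to 0.113 CPM. Levels are CPM scaled by TMM over the 8 libraries, and such floors cover counting error only.

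The KO tumor libraries stood apart from a CD4 T cell sort, and from each other, in the defining markers. Per length of transcript, in TPM, Cd4 was 652.3 and 600.0 in the KO spleens, 84.4 in KO tumor 1 and 38.4 in KO tumor 2. Cd8a, the coreceptor of cytotoxic T cells, was 2.12 and 1.77 TPM in the spleens, 137.5 in KO tumor 1 and 781.7 in KO tumor 2. The ratio of Cd8a to Cd4 was therefore 1.63 in KO tumor 1 and 20.3 in KO tumor 2, against 0.00326 and 0.00295 in the KO spleens. The WT tumors had ratios of 0.0986 and 0.00989. Foxp3 amounted to 3.38% and 4.60% of Cd3e (a chain of the T cell receptor complex) in the KO spleens, to 3.31% in KO tumor 1 and to 0.299% in KO tumor 2, again in TPM. Relative to Cd3e, Foxp3 was thus near its spleen share in KO tumor 1 and lower in KO tumor 2. These libraries go by their labels below, which the CD8 markers went against, and how many of their cells were eTreg cells was not tested.

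Marker lists of other cell types differed in the same libraries. The 16 pan T cell genes summed to 12080 and 11335 CPM in the KO spleens, 2867 CPM in KO tumor 1 and 9254 CPM in KO tumor 2. The 16 macrophage and monocyte genes summed to 408.7 and 1162 CPM in the spleens, 19346 CPM in KO tumor 1 and 2610 CPM in KO tumor 2, and none was at 0. The 10 melanoma genes summed to 6.46 and 8.13 CPM in the spleens, where 6 and 5 of them were at 0, to 3287 CPM in KO tumor 1 and to 868.2 CPM in KO tumor 2, where none was at 0. KO tumor 1 thus held more myeloid and melanoma transcripts, and KO tumor 2 more CD8 transcripts. The 10 CD8 T cell genes summed to 298.6 and 227.8 CPM in the spleens, 1954 CPM in KO tumor 1 and 9252 CPM in KO tumor 2. Neutrophil genes reached 379.5 and 201.3 CPM in KO tumor 1 and 2 against 5.31 and 10.3 CPM in the spleens, dendritic cell genes 230.3 and 124.0 CPM against 14.7 and 24.6 CPM, and NK cell genes 85.7 and 140.6 CPM against 14.8 and 9.98 CPM. B cell genes summed to 149.4 and 27.9 CPM in the tumors and 65.7 and 104.1 CPM in the spleens, so these groups overlapped. Red cell genes reached 812.7 and 778.6 CPM against 306.1 and 90.1 CPM, fibroblast genes stayed at or below 6.86 CPM, and endothelial genes at or below 113 CPM, nearly all of it Pecam1, which T cells also express. In bulk RNA, fewer cells of a type and less RNA per cell cannot be told apart, and the part these transcripts had in the fold changes below was not tested.

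**Figure D1:**
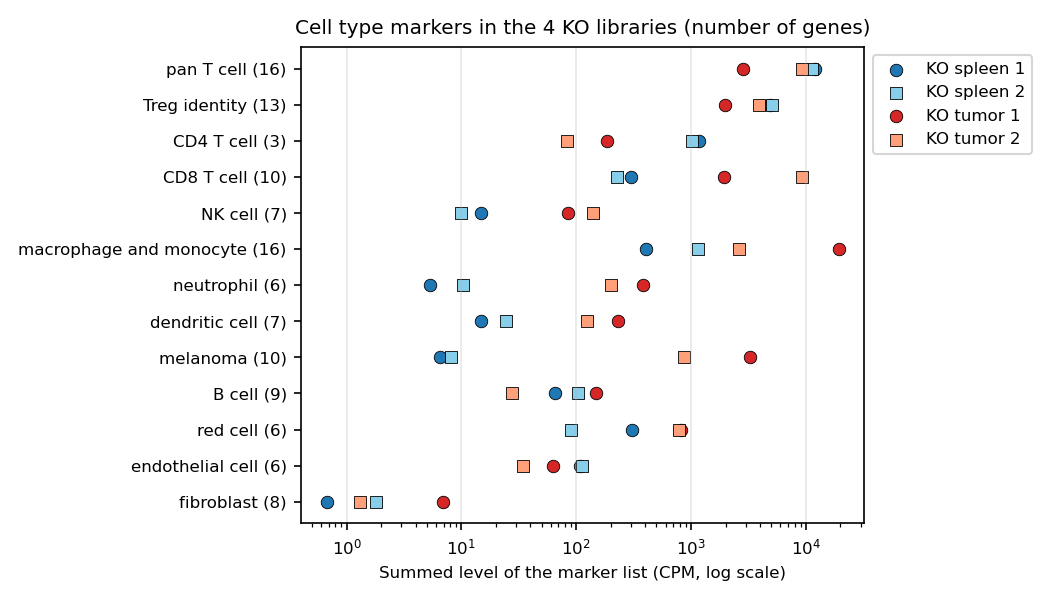
Summed level of each marker list (CPM, log scale) in the 4 KO libraries, with the number of genes in parentheses and 1 point per library. The melanoma, macrophage and CD8 sums of both tumor points lie right of both spleen points, and the macrophage sum of KO tumor 1 (19346 CPM) is the highest of all.

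Of 16933 genes tested, 136 rose in KO tumor (0.803%) and 92 fell (0.543%), at an adjusted p under 0.05 and an absolute log2 fold change over 1. Together these 228 genes were 1.35% of those tested, and the smallest adjusted p was 0.0267. The shares of 0.803% and 0.543% are the background for the called counts of every list below. Without adjustment, 5256 genes had a p under 0.05. DESeq2 on the same libraries called 3775 genes, 12.6% of those with an adjusted p as higher and 6.32% as lower, and all 136 and all 92 genes were among them. An edgeR fit over all 8 libraries with the same contrast called 9.75%, 6.37% as higher and 3.39% as lower. The count moved widely when a library was left out. It was 0 without KO spleen 1 or without KO spleen 2, 3549 without KO tumor 1 and 4958 without KO tumor 2. In these fits the remaining library of a group is assumed to vary like the other group.

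The spread between libraries was much larger in the tumor. Among genes at 5 CPM or more in a KO tumor library, 973 of 10822 (8.99%) were over 4-fold apart between the 2 tumor libraries, 875 of them higher in KO tumor 1 and 98 higher in KO tumor 2. Between the KO spleens it was 28 of 10129 genes (0.276%). The tested genes of the CD8, granzyme and cell cycle lists all stood higher in KO tumor 2, and those of the macrophage, melanoma and MHC class II lists all higher in KO tumor 1.

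**Figure D2:**
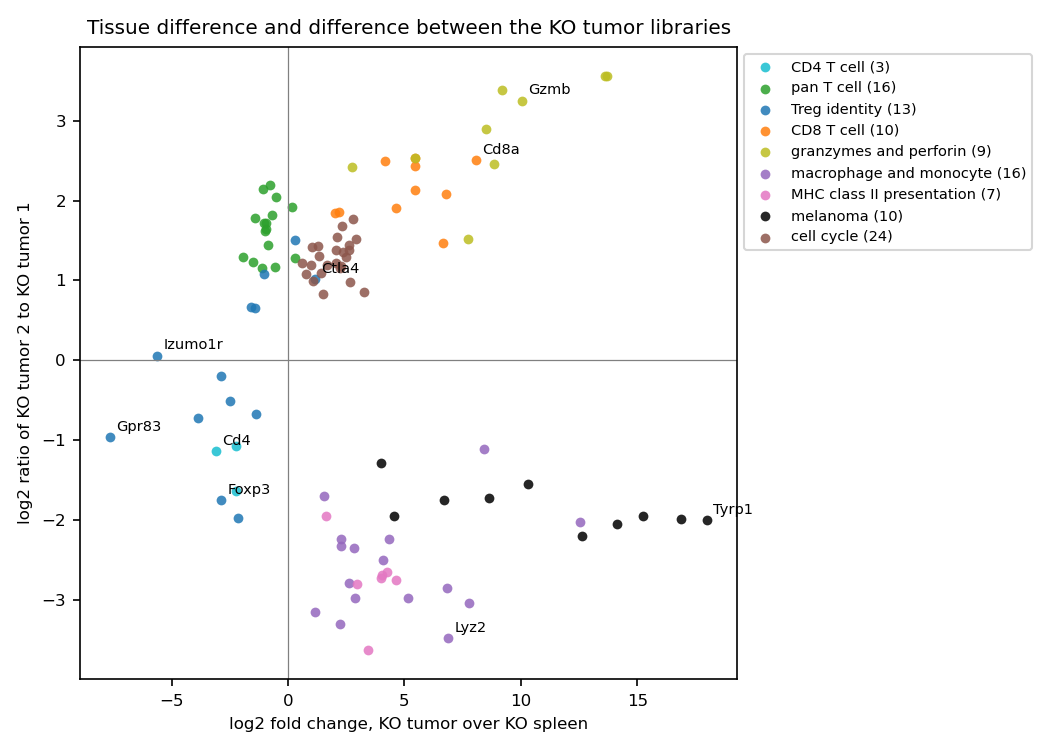
Each point is a tested gene of a marker or pathway list, with its fitted log2 fold change between KO tumor and KO spleen on the horizontal axis and the log2 ratio of KO tumor 2 to KO tumor 1 on the vertical axis. CD8 and granzyme genes lie above the horizontal line and macrophage, MHC class II and melanoma genes below it. For genes without spleen counts the horizontal position depends on the prior count of the fit.

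Because T cell transcripts made up less of the tumor libraries, a second scaling set the geometric mean of the pan T cell list equal in all libraries. It multiplied KO tumor 1 by 3.83 and KO tumor 2 by 1.23, and moved the median log2 fold change of all tested genes from 0.01 to 1.27. Under it 2212 genes were called higher (13.1%) and 126 lower (0.744%). It raises tumor values against spleen values, so the 136 higher genes could only keep their sign. All 92 lower genes also kept theirs, and 29 of them were also called lower under it. With this scaling both tumor libraries lay below both spleen libraries for 86 of the 92 genes, against 6.57% of all tested genes (55.1% lay above), and for 34 the distance was more than 4-fold. The pan T cell list itself had no called gene and a median log2 fold change of -0.94, or -0.07 under the second scaling. Its genes are not specific to CD4 T cells, and Cd8a exceeded Cd4 in both KO tumor libraries. Values on this scale are therefore per T cell transcript of any kind, not per Treg or CD4 cell.

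Genes that define Treg cells were lower in KO tumor. Of 13 Treg identity genes 5 fell, none rose and 11 lay below both spleens in both tumor libraries, where 33.9% of all tested genes did so. Their median log2 fold change was -2.17, against 0.01 for all genes. After scaling to pan T cell genes the median was -0.52, 2 genes were called and 7 lay below both spleens (6.57% of all tested genes did). The 5 genes were Izumo1r, Gpr83, Ikzf4, Itgae and Ikzf2. Izumo1r, which encodes folate receptor 4, a surface protein abundant on Treg cells, was at 599 and 524 CPM in the spleens and at 10.9 and 11.3 CPM in KO tumor 1 and 2. Both tumor libraries were alike and far below both spleens (log2 fold change -5.62, SE 0.25, edgeR adjusted p = 0.0267), and the value stayed between -5.68 and -5.50 when any library was left out. Gpr83, an orphan receptor of Treg cells that lies next to Izumo1r on chromosome 9, went from 76.4 and 63.5 CPM to 0.440 and 0.226 CPM (log2 fold change -7.63, SE 0.45, edgeR adjusted p = 0.0332). After scaling to pan T cell genes Izumo1r was still at 41.7 and 13.9 CPM in the tumor libraries against 571 and 551 CPM in the spleens, and both genes were called lower under that scaling too.

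The other 3 called genes were less separated per T cell transcript. Ikzf2, encoding Helios, was at 283 and 340.0 CPM in the spleens and 63.4 and 44.5 CPM in the tumors (log2 fold change -2.48, SE 0.30). Ikzf4, encoding Eos, was at 124 and 134 against 18.2 and 15.9 CPM. Itgae, encoding the integrin chain CD103, was at 318 and 348 against 27.3 and 16.5 CPM. Scaled to pan T cell genes, Ikzf2 was at 243 CPM in KO tumor 1 and 54.9 CPM in KO tumor 2, with spleens at 269.9 and 358 CPM. KO tumor 1 thus came close to the spleens, and KO tumor 2 did not.

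Foxp3 and Cd4 showed the same split. Foxp3 was at 43.8 and 57.4 CPM in the spleens, 10.1 CPM in KO tumor 1 and 3.01 CPM in KO tumor 2, and did not pass the test (log2 fold change -2.88, SE 0.67, edgeR adjusted p = 0.0743). Scaled to pan T cell genes it was at 41.7 and 60.4 CPM in the spleens, 38.8 CPM in KO tumor 1 and 3.71 CPM in KO tumor 2. Cd4 was at 977 and 937 CPM on that scale in the spleens, 561 CPM in KO tumor 1 and 82.0 CPM in KO tumor 2. On that scale KO tumor 1 lay near the spleens for Foxp3, and KO tumor 2 lay far below them for both genes. Ctla4, the inhibitory receptor of Treg cells, went the other way, from 317 and 317 CPM to 457 and 922 CPM, without passing the test (log2 fold change 1.15, SE 0.37, edgeR adjusted p = 0.122). Il2ra, the high affinity IL-2 receptor chain, was at 266 and 249 against 64.6 and 102 CPM, also short of the threshold (adjusted p = 0.0591).

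Of 13 quiescence and recirculation genes 2 fell, S1pr1 and Tcf7, and 10 lay below both spleens, where 33.9% of all tested genes did (median log2 fold change -1.07). This depended on the scaling: with pan T cell scaling none was called, 4 lay below both spleens (6.57% of all tested genes did) and the median was 0.06. S1pr1, the receptor that guides lymphocytes out of lymphoid organs, was at 586 and 689.7 CPM in the spleens and 53.0 and 69.2 CPM in the tumors (log2 fold change -3.35, SE 0.26, edgeR adjusted p = 0.0366). Tcf7, encoding the transcription factor TCF-1, was at 377 and 313 against 54.5 and 66.6 CPM. Ccr7, a lymph node homing receptor, was not called, at 245 and 252 CPM in the spleens and 463 and 334 CPM in the tumors.

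Of 10 follicular regulatory genes 3 fell, none rose, and 9 lay below both spleens, where 33.9% of all tested genes did (median log2 fold change -2.38). Scaled to pan T cell genes none was called, 6 lay below both spleens (6.57% of all tested genes did) and the median was -1.36. Cxcr5, the receptor for follicle entry, went from 188 and 159 CPM to 12.3 and 9.28 CPM (log2 fold change -3.95, SE 0.29, edgeR adjusted p = 0.0353). Tox2 went from 122 and 127 to 13.0 and 7.18 CPM and Slamf6, a signalling receptor of T and follicular cells, from 624 and 531 to 77.9 and 78.5 CPM. Bcl6, the factor that defines follicular cells, was closer between tissues. It was at 54.6 and 51.0 CPM in the spleens, 43.4 CPM in KO tumor 1 and 16.9 CPM in KO tumor 2, and did not pass the test (adjusted p = 0.378).

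**Figure D3:**
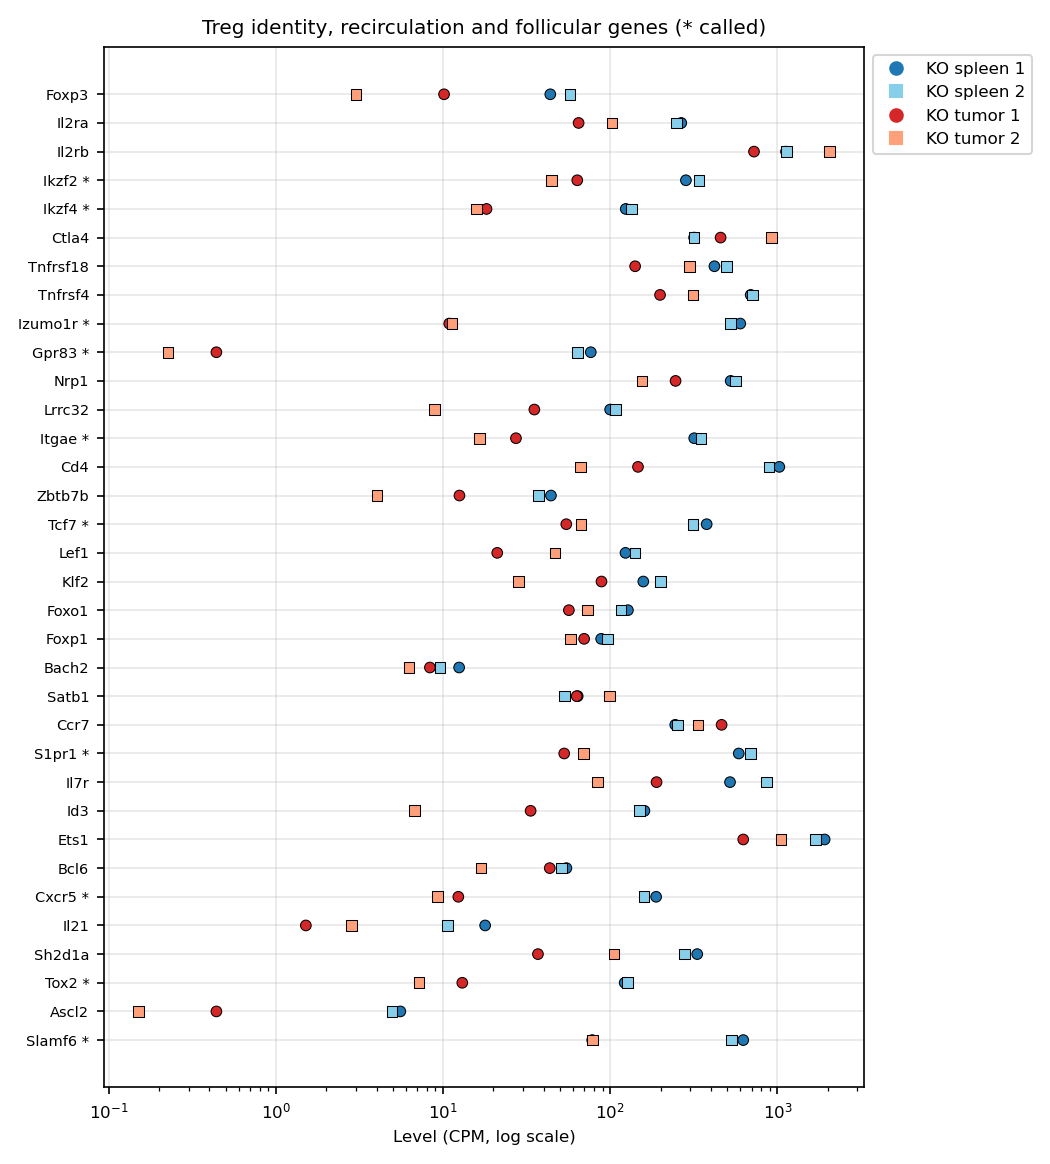
Levels in CPM (log scale) of Treg identity, CD4, recirculation and follicular genes in the 4 KO libraries, with 1 point per library and an asterisk on genes called at the adjusted threshold. Blue spleen points lie right of red tumor points for most genes, and Izumo1r and Gpr83 show the widest gaps.

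Trafficking and surface receptors moved in both directions. Of 19 chemokine and egress receptors 2 rose and 3 fell, where 0.803% and 0.543% of all tested genes did so. Ccr4 fell from 333 and 315 CPM to 29.0 and 14.4 CPM, beside Cxcr5 and S1pr1. Cx3cr1 rose from 0.371 and 1.01 CPM to 83.7 and 84.0 CPM. Cx3cr1 is also expressed by macrophages and CD8 T cells. Ccr8, a receptor of tumor Treg cells, was at 96.0 and 92.2 CPM in the spleens and 82.4 and 55.9 CPM in the tumors (adjusted p = 0.400). Of 12 integrins 2 fell, Itgae and its partner chain Itgb7, where 0.543% of all tested genes fell. Itgb7 went from 2034 and 1660.1 CPM to 422 and 403 CPM.

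Of 15 suppressive mediators 1 rose and 1 fell, where 0.803% and 0.543% of all tested genes did so. Both tumor libraries lay above both spleens for 10 of them and below for 5, against 29.7% and 33.9% of all tested genes. The one that rose was Prf1, encoding perforin, which is also on the granzyme and perforin list and stood higher in KO tumor 2, as the CD8 genes did. Nt5e, the ectoenzyme CD73 that makes adenosine from AMP, fell from 483 and 374 CPM to 36.4 and 26.7 CPM (log2 fold change -3.71, SE 0.32, edgeR adjusted p = 0.0366). Entpd1, the ectoenzyme CD39 that supplies AMP, was at 37.6 and 51.3 against 219.8 and 169 CPM, short of the threshold (adjusted p = 0.0516). Il10 was at 0.786 and 0.955 CPM in the spleens, 32.1 CPM in KO tumor 1 and 5.19 CPM in KO tumor 2 (adjusted p = 0.0733).

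Of 10 checkpoint receptors 2 rose and 1 fell, where 0.803% and 0.543% of all tested genes did so. Havcr2, encoding TIM-3, rose from 3.80 and 4.80 CPM to 144 and 299 CPM (log2 fold change 5.71, SE 0.47, edgeR adjusted p = 0.0366), and Cd244, the receptor 2B4 of cytotoxic cells, from 2.71 and 3.43 CPM to 92.1 and 99.5 CPM. Btla fell from 184 and 149.9 CPM to 29.0 and 30.8 CPM. Pdcd1, encoding PD-1, was at 545 and 464 CPM in the spleens and 414 and 1405 CPM in the tumors, so the groups overlapped. All 10 checkpoint receptors stood higher in KO tumor 2 than in KO tumor 1, as the CD8 genes did. Among all tested genes 8676 of 16933 did so. Which cells gave these transcripts was not tested. Of 9 costimulatory receptors none passed the test, and 7 lay below both spleens, where 33.9% of all tested genes did. With pan T cell scaling 2 lay below and 3 above both spleens, where 6.57% and 55.1% of all tested genes did so. The median log2 fold change went from -1.03 to -0.02. Tnfrsf4, encoding OX40, was at 691 and 712 against 198 and 312 CPM. Of the lower genes named from these receptor and mediator lists, Ccr4, S1pr1, Cxcr5, Itgae, Itgb7, Nt5e and Btla were not called with pan T cell scaling. Under that scaling 2 of the 19 chemokine and egress receptors were called lower.

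Sostdc1 and Izumo1r shared the smallest adjusted p of the genes that fell. Sostdc1, a secreted antagonist of BMP and Wnt signalling, known in follicular T cells, was at 88.2 and 98.2 CPM in the spleens and 0.157 and 0.0752 CPM in the tumors, the latter value under the floor (log2 fold change -9.53, SE 0.42, edgeR adjusted p = 0.0267). The rest of the 8 lower genes with the smallest adjusted p, beside Izumo1r and Gpr83, were Ces2c, Actg2, Aqp3, Rln3 and Sh3gl3. Ces2c, a carboxylesterase of a family with similar members, was at 74.6 and 67.4 against 0.566 and 0.301 CPM. Actg2, a smooth muscle actin, was at 63.9 and 46.7 against 1.51 and 1.73 CPM, and Aqp3, a water and glycerol channel, at 83.7 and 68.6 against 4.69 and 4.40 CPM. Rln3 lies beside Il27ra on the same strand, so its reads could belong to that neighbor. The sign of all 8 was the same when any library was left out, which their choice by groups without overlap made nearly certain.

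The genes that rose differed in their spleen level. Of 136, 63 were at 5 CPM or more in both KO spleens, 41 were under 1 CPM in both and 32 lay between. The first class separates genes that the spleen libraries also held from those that were near absent there, although it does not show which cells of the tumor gave the RNA. In that class, outside every cell type marker list, the genes with the smallest adjusted p were Nedd4, Nr4a2, Dusp5, Sema4a, Irf8, Plac8, Smim3, Hilpda, Snx9, Ly6c2, Asns and Fosl2. With 2 libraries a group a small adjusted p needs close values within each group, so how close their tumor values lay was part of how they were chosen.

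Nedd4, an E3 ubiquitin ligase, was at 7.31 and 6.48 CPM in the spleens and 105 and 118 CPM in the tumors (log2 fold change 4.06, SE 0.22, edgeR adjusted p = 0.0332). Dusp5, a phosphatase of ERK, was at 37.3 and 30.2 against 408 and 430.3 CPM. Irf8, a transcription factor of myeloid cells and activated T cells, was at 37.1 and 39.8 against 422 and 391 CPM, and Hilpda, a lipid droplet protein induced by hypoxia, was at 25.8 and 35.2 against 411 and 404 CPM. Smim3 and Snx9 were at 71.0 and 76.5 CPM and at 63.6 and 53.8 CPM in the tumors. Their source among the cells of the tumor was not tested. Sema4a, a semaphorin, was at 14.0 and 14.7 against 213 and 311 CPM. Ly6c2 was further apart, at 987 and 2082 CPM, and Plac8 was at 835 and 496 CPM. For all 12 genes both WT tumor libraries also lay above both WT spleens, as for 25.5% of the genes tested.

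T cell receptor signalling induces the Nr4a family of nuclear receptors, and the family stood higher in KO tumor. Of 12 TCR-induced genes 3 rose (Nr4a2, Irf8 and Nr4a1) and none fell. Nr4a2 rose from 23.3 and 17.1 CPM to 499 and 678 CPM (log2 fold change 4.90, SE 0.32, edgeR adjusted p = 0.0332), and Nr4a1 from 72.3 and 41.1 CPM to 871 and 548 CPM. Nr4a3 was at 16.4 and 8.05 against 102 and 123 CPM, at the edge of the threshold (adjusted p = 0.0501). The list was not uniform: 5 members lay above both spleens and 5 below, where 29.7% and 33.9% of all tested genes did so. Cd69, the activation marker, was at 208 and 204 CPM in the spleens and 179 and 173 CPM in the tumors. Myc was at 54.8 and 62.8 against 43.7 and 32.9 CPM. Of 16 effector transcription factors only Bhlhe40 passed, from 254 and 220.3 CPM to 1022 and 1309 CPM (log2 fold change 2.34, SE 0.25, edgeR adjusted p = 0.0420).

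Glycolysis and hypoxia genes were higher in KO tumor. Of 31 genes 3 rose and none fell, 28 lay above both spleens in both tumor libraries where 29.7% of all tested genes did, and the median log2 fold change was 1.77. Tpi1, a glycolytic isomerase, rose from 215 and 229 CPM to 1657 and 1340.4 CPM (log2 fold change 2.80, SE 0.27, edgeR adjusted p = 0.0374). Pgk1, a kinase of the same pathway, rose from 215 and 177 CPM to 925 and 854 CPM, and Slc16a3, the lactate exporter MCT4, from 21.6 and 20.8 CPM to 494 and 227 CPM. Several others were just short of the threshold, such as Aldoa at 717 and 729.8 against 2663 and 2326 CPM (adjusted p = 0.0534). Ddit4, a stress-induced inhibitor of mTORC1, was the member furthest below the spleens, at 66.9 and 74.7 against 14.7 and 25.6 CPM. DESeq2 called 22 of the 31 higher and 1 lower.

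Hypoxia-inducible factors bind a short core, ACGTG, and stretches of the promoters of Pgk1 and Slc16a3, called members of the list, and of Hilpda, a called gene outside it, are shown because each holds it. Tpi1, the other called member, is not shown. The sequences are from RefSeq (GRCm38.p6), read 5′ to 3′ on the strand of the gene, and capitals mark ACGTG or its complement CACGT.
Pgk1: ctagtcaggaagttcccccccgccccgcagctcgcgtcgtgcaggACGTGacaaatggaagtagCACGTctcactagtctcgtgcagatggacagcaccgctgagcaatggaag
Slc16a3: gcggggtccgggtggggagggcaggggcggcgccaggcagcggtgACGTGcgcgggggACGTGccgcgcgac
Hilpda: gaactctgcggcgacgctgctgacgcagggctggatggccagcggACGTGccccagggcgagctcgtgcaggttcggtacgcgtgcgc
The stretches are chrX:106186905-106187018 on the plus strand, chr11:120948995-120949066 on the plus strand and chr6:29272538-29272625 on the plus strand. In windows from 250 bases before to 50 bases after the start, 20 of 28 glycolysis and hypoxia genes with a window held the core on either strand (71.4%), against 5886 of 27025 genes overall (21.8%). The core is also part of the E-box CACGTG, and the motif was chosen after the values of these genes were known. The list was made up of glycolysis and hypoxia response genes, so the share is no independent test. A match is a string of letters and no measured site.

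Some cholesterol synthesis genes rose. Of 17 cholesterol and fatty acid genes 3 rose, none fell and 15 lay above both spleens, where 29.7% of all tested genes did (median log2 fold change 2.64). Hmgcs1, the synthase at the entry of the mevalonate pathway, rose from 34.9 and 23.8 CPM to 210.1 and 202 CPM (log2 fold change 2.86, SE 0.28, edgeR adjusted p = 0.0374). Sqle, squalene epoxidase, rose from 27.1 and 21.5 CPM to 164 and 130.1 CPM, and Idi1, an isomerase of the pathway, from 13.1 and 8.64 CPM to 76.2 and 84.2 CPM. The lipid uptake genes Cd36 and Lpl were far apart between the tumor libraries, with Lpl at 554 CPM in KO tumor 1 and 91.9 CPM in KO tumor 2. Of the 17 genes 12 were higher in KO tumor 1, the library with more myeloid transcripts, than in KO tumor 2, and the median log2 ratio of KO tumor 2 to KO tumor 1 was -1.28.

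Asns, asparagine synthetase, a target of the amino acid stress factor ATF4, rose from 13.1 and 9.70 CPM to 79.6 and 88.7 CPM (log2 fold change 2.93, SE 0.25, edgeR adjusted p = 0.0366). Its promoter is shown with the ATF4-type element TGATGAAAC in capitals, which 62 of 27025 genes hold in such a window (0.229%). The element was chosen for this gene, so the share is no test, and a match is no measured site.
Asns: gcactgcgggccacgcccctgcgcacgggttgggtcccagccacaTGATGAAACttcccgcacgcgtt
The stretch is chr6:7693210-7693277 on the minus strand (GRCm38.p6, RefSeq).

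**Figure D4:**
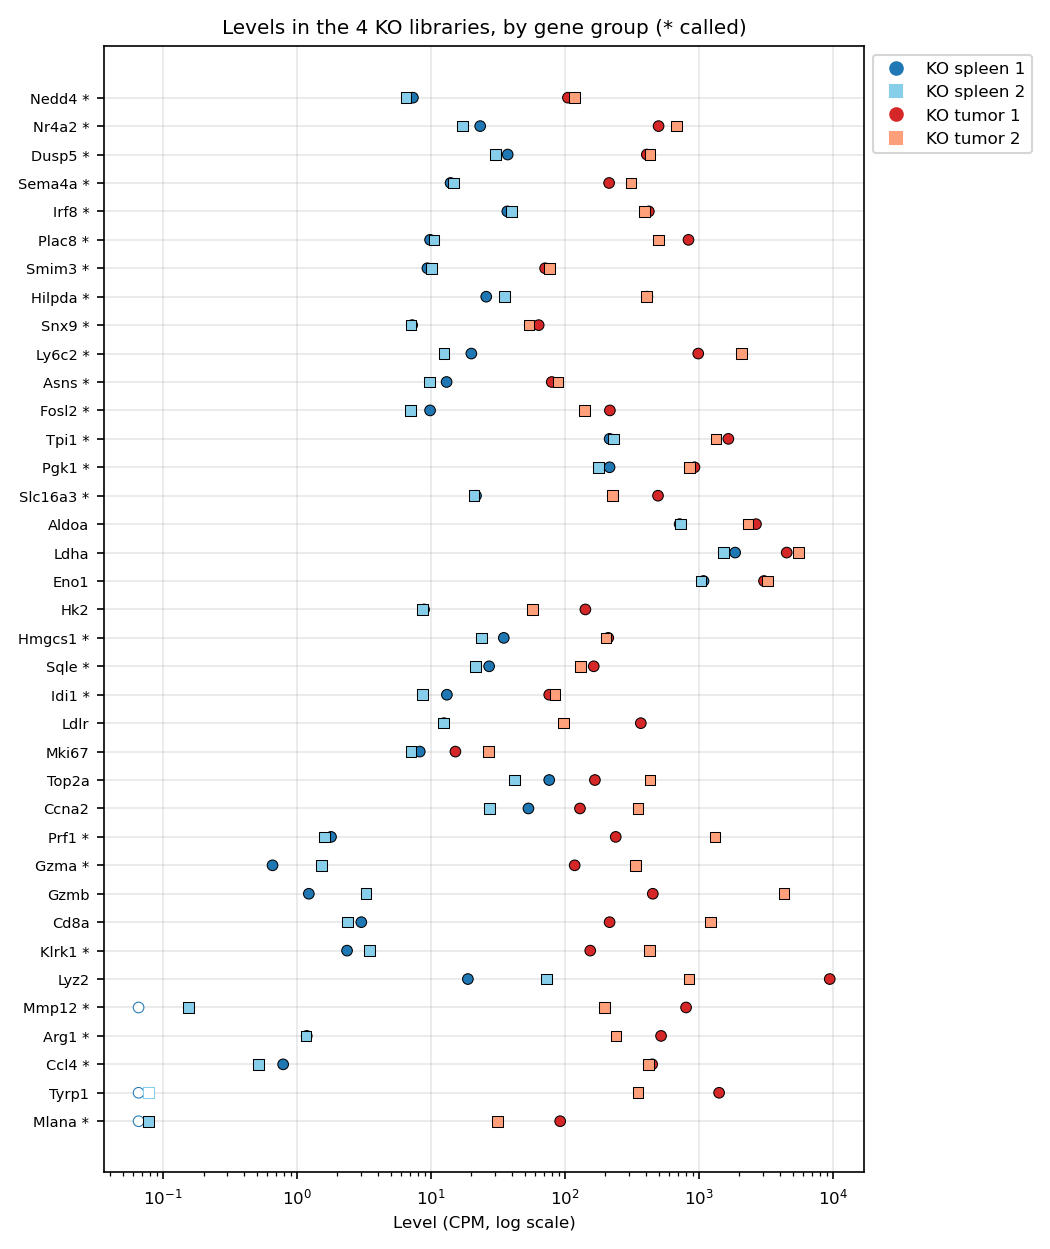
Levels in CPM (log scale) in the 4 KO libraries of genes higher in KO tumor, with 1 point per library, asterisks on called genes and open points at the floor of 3 counts where a library was below it. The red points lie right of the blue points in every line, and the Gzmb, Cd8a and Lyz2 points of the tumor libraries are far apart.

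Cytotoxic transcripts formed the first group that differed between the tumor libraries. All 10 CD8 T cell genes lay above both spleens (29.7% of all tested genes did), 1 passed the test (Klrk1) and the median log2 fold change was 5.44. Klrk1, encoding the receptor NKG2D, rose from 2.36 and 3.46 CPM to 154 and 426 CPM. Cd8a was at 3.01 and 2.37 CPM in the spleens, 215 CPM in KO tumor 1 and 1220.1 CPM in KO tumor 2 (log2 fold change 8.07, SE 1.07, edgeR adjusted p = 0.0514), and Cd8b1, its partner chain, at 12.3 and 15.5 CPM against 187 and 1012 CPM.

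Of 9 granzyme and perforin genes tested, all lay above both spleens (29.7% of all tested genes did), and Prf1 and Gzma rose. Prf1, the pore-forming protein of cytotoxic cells, went from 1.79 and 1.60 CPM to 239 CPM in KO tumor 1 and 1314 CPM in KO tumor 2 (log2 fold change 8.85, SE 1.09, edgeR adjusted p = 0.0485). Gzma, a granzyme that Treg cells can also express, went from 0.655 and 1.52 CPM to 118 and 337 CPM. Gzmb reached 452 and 4310.4 CPM from 1.22 and 3.28 CPM without passing (adjusted p = 0.0576). Gzmd and Gzme had no count in the KO spleens, and their tumor means were at least 1337-fold and 1231-fold higher than a floor of 3 counts over the spleen group. Members of the granzyme and Klra families are similar in sequence, so the counts of single members are uncertain. Of 7 NK cell genes 2 rose, Klre1 and Klri2, while Ncr1, an NK cell receptor, was at 13.3 CPM in KO tumor 1 and 1.54 CPM in KO tumor 2 with no count in the spleens. The NK median log2 fold change was 8.46, or 5.94 with the 3 genes that had no spleen count at their lower bound.

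Further genes that rose and stood higher in KO tumor 2 were Tmprss6, at 9.62 and 22.9 CPM, and Adamts14, at 12.6 and 28.5 CPM, with both near absent in the spleens. All 24 cell cycle genes were higher in KO tumor 2 than in KO tumor 1. Of these 22 lay above both spleens, where 29.7% of all tested genes did. None was called, and the median log2 fold change was 2.08. Top2a, the topoisomerase of dividing cells, was at 76.2 and 42.2 CPM in the spleens, 167 CPM in KO tumor 1 and 429.7 CPM in KO tumor 2. Ifng was at 9.91 and 3.64 against 51.0 and 369.7 CPM, and none of the 9 effector cytokine genes tested passed.

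Myeloid transcripts formed the second group, highest in KO tumor 1. Of 16 macrophage and monocyte genes 2 rose, Mmp12 and Arg1, and 12 lay above both spleens, where 29.7% of all tested genes did. All 16 were higher in KO tumor 1 than in KO tumor 2. Arg1, arginase of macrophages, rose from 1.18 and 1.16 CPM to 521 and 241 CPM (log2 fold change 8.40, SE 0.60, edgeR adjusted p = 0.0353). Mmp12, the macrophage elastase, was at 801 and 197 CPM in the tumors and at 0.0218 and 0.155 CPM in the spleens. Lyz2, lysozyme, was at 18.8 and 72.6 CPM in the spleens, 9463 CPM in KO tumor 1 and 844 CPM in KO tumor 2 (adjusted p = 0.0747). Of 6 neutrophil genes S100a8, S100a9 and Retnlg rose, with S100a8 at 2.31 and 5.005 against 113 and 86.3 CPM. The 7 MHC class II genes all lay above both spleens, where 29.7% of all tested genes did, and none was called. H2-Ab1 was at 94.1 and 145 CPM in the spleens, 3719 CPM in KO tumor 1 and 593 CPM in KO tumor 2.

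Chemokine ligands, which draw leukocytes to tissue, held the most called genes of any list. Of 20 ligands 9 rose, none fell and all 20 lay above both spleens, where 29.7% of all tested genes did. The 9 were Ccl2, Ccl3, Ccl4, Ccl7, Ccl8, Ccl12, Ccl17, Ccl22 and Cxcl3. Ccl4 rose from 0.786 and 0.516 CPM to 447 and 419 CPM (log2 fold change 9.41, SE 0.38, edgeR adjusted p = 0.0267). The ligands of monocyte receptors were higher in KO tumor 1, with Ccl2 at 733 and 177 CPM, Ccl7 at 719.8 and 193 CPM and Ccl12 at 217 and 62.8 CPM. Ccl22, a ligand of the Treg receptor Ccr4, was at 40.6 and 13.8 CPM. Spp1, encoding osteopontin, a product of tumor macrophages and of activated T cells, shared with Ccl4 the smallest adjusted p of the genes that rose. It was at 2.95 and 3.61 CPM in the spleens and 507 and 573 CPM in the tumors (log2 fold change 7.40, SE 0.30, edgeR adjusted p = 0.0267). Tinagl1, Mmp13 and Syngr1 rose and stood higher in KO tumor 1, with Mmp13 at 242 and 74.95 CPM.

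Melanoma transcripts formed the third group. Of 10 genes Mlana and Pmel rose and all 10 lay above both spleens, where 29.7% of all tested genes did. Pmel, a melanosome fiber protein, was at 3.73 and 5.50 CPM in the spleens and 710.4 and 212 CPM in the tumors (log2 fold change 6.70, SE 0.82, edgeR adjusted p = 0.0485). Tyrp1, an enzyme of melanin synthesis, had no spleen count and reached 1413 and 352 CPM, at least 24870-fold above the floor, without passing the test (adjusted p = 0.0501). The median log2 fold change was 11.46, or 9.76 with the 5 genes without spleen counts at their bound. WT tumors held the same transcripts, with Tyrp1 at 957 and 571 CPM.

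The melanocyte factor MITF is known to bind the M-box, whose core is TCATGTG. Stretches of the promoters of the 3 melanin enzymes are shown because each holds it. Capitals mark the core or its complement CACATGA.
Tyr: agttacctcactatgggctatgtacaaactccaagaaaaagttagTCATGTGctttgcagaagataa
Tyrp1: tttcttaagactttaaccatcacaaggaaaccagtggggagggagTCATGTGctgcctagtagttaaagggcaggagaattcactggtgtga
Dct: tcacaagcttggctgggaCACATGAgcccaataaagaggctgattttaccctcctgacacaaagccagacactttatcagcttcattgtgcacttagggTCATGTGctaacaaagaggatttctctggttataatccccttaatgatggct
These are chr7:87493513-87493579 on the minus strand, chr4:80834121-80834212 on the plus strand and chr14:118052346-118052496 on the minus strand (GRCm38.p6, RefSeq). Of the 6 melanoma list genes with a window 4 held the core (66.7%), against 1165 of 27025 genes (4.31%). The motif was chosen for the 3 enzymes, which are among these 4, so the share is no independent test. All 3 enzymes were without a count in the KO spleens.

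The remaining lists had no called gene. The 16 interferon-stimulated genes had a median log2 fold change of 2.09, with 14 above both spleens, where 29.7% of all tested genes lay. In KO tumor 1 15 were higher, such as Rsad2 at 368 and 70.3 CPM against 11.4 and 12.6 CPM. The 15 immediate early and heat shock genes, which digestion of tissue is known to induce, had a median of 1.48. Of these 10 lay above both spleens, where 29.7% of all tested genes did, and 5 overlapped. Fos, among those that overlapped, was at 276 and 54.0 CPM in the spleens and 1113 and 206 CPM in the tumors. The 12 survival and death genes had a median of 1.15, with Bcl2l11, encoding the death protein BIM, at 27.8 and 40.0 against 204 and 140.4 CPM.

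**Figure D5:**
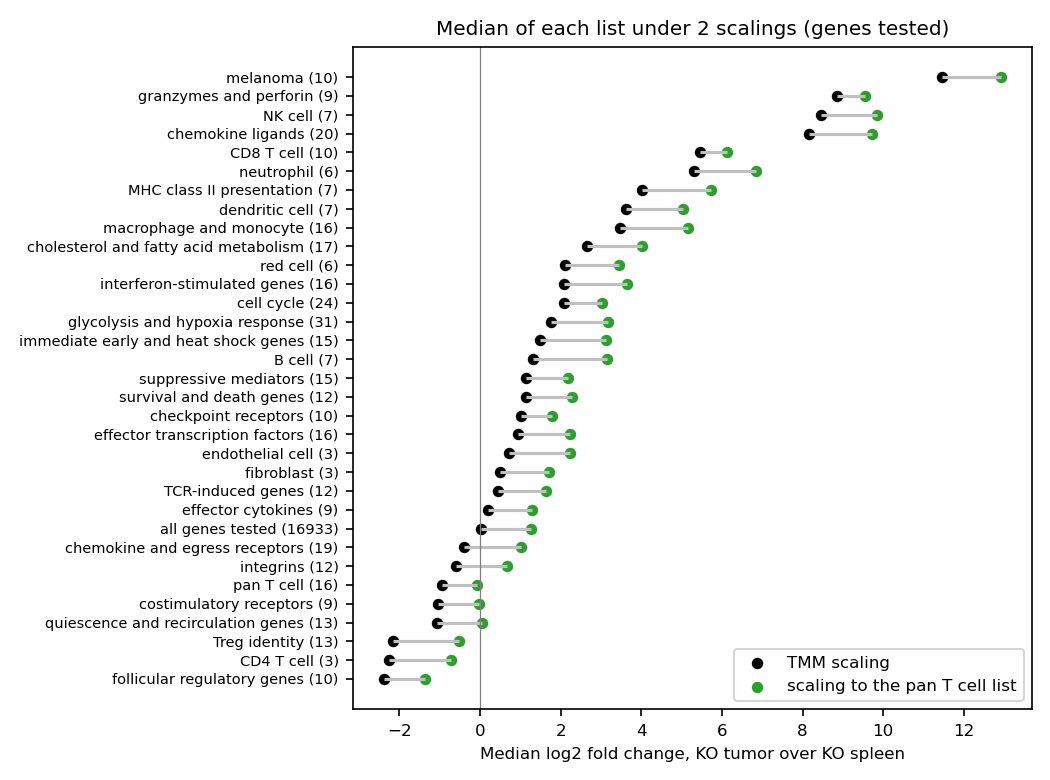
Median log2 fold change between KO tumor and KO spleen of each list, with TMM scaling (black) and with scaling to the pan T cell list (green), and the number of genes tested in parentheses. All tested genes move from 0.01 to 1.27, and the Treg identity, CD4 and follicular lists stay below 0 under both scalings.

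The tissue difference was then set beside that of WT libraries, where the same sort was used. WT libraries also held transcripts of other cells, unevenly within groups. The macrophage and monocyte genes summed to 587 and 2699 CPM in the WT spleens and to 4505 and 828 CPM in the WT tumors. Cd4 per Cd3e in TPM was 62.4% and 27.4% in the WT spleens. What part this had in the values below was not tested. Of the 136 higher genes 113 also had both WT tumor libraries above both WT spleens, which 25.5% of the genes did, and of the 92 lower genes 69 had both below, which again 25.5% of the genes did. An interaction over the 8 libraries asked where the difference itself differed between genotypes. None of 17870 genes passed (0.0%, edgeR, smallest adjusted p 0.164), with 1399 at an unadjusted p under 0.05, while DESeq2 called 309. Among Treg identity genes, 11 of 13 had an unadjusted p under 0.05, and the median interaction was -2.55, meaning lower in KO tumor relative to WT. Izumo1r was at 908 and 1309.7 CPM in the WT spleens and 232 and 378 CPM in the WT tumors, so it was lower in both genotypes and by less in WT (interaction -3.74, SE 0.53, adjusted p = 0.177). Ctla4 was at 4141 and 5740.3 CPM in the WT tumors, above both KO tumor libraries (interaction -2.67, SE 0.58, adjusted p = 0.261). Cd4 per Cd3e in TPM was 88.1% and 77.0% in the WT tumors against 47.4% and 6.55% in KO tumor 1 and 2, and its part in these values was not tested.

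The genes with the smallest interaction p were Rln3, Dusp2, Ncmap, Ermn, Pde3b and Izumo1r. Pde3b, a cyclic nucleotide phosphodiesterase, rose from 1.03 and 2.12 CPM to 42.2 and 68.7 CPM in KO, and was at 2.99 and 3.65 CPM in the WT spleens and 4.78 and 4.13 CPM in the WT tumors. Ncmap fell from 22.1 and 23.1 CPM to 0.818 and 0.564 CPM in KO, and was at 39.9 and 39.3 CPM in WT spleens and 27.3 and 57.8 CPM in WT tumors. These differences did not pass the adjustment (adjusted p = 0.177 and 0.164).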

How the data were processed

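RNA-seq was done on cells labelled as eTreg in 8 libraries, 2 per group. The deposited values are raw counts of reads for each gene. The authors' methods name Trimmomatic 0.36, STAR 2.5.2b, GRCm38 and featureCounts of Subread 1.5.2, with unique reads within exons counted. The strand setting was not stated, so overlapping and antisense genes are uncertain. A deposited table of normalized values was not used. Members and lists were chosen with earlier results of these data known.

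Counts of 49212 genes were tested with edgeR 4.0.16 (quasi-likelihood, TMM, filterByExpr; R 4.3.3) on the 4 KO libraries, with Benjamini-Hochberg adjusted p under 0.05 and absolute log2 fold change over 1. The interaction used 8 libraries. An exact permutation test of 2 against 2 cannot go below 0.333. Alternatives included DESeq2 1.42.0, other filters and scalings, an offset for GC content, thinning and leaving out libraries.

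Totals ranged from 27834676 to 43903859. Chi-square tests of the replicate pair within each group gave 37.2 to 344.4 per degree of freedom, so neither library of a pair copied the other's counts. These values do not tell separate mice from technical repeats. TPM used the exon lengths of the count files. Promoter windows came from RefSeq. Cd244a is listed in the files as Cd244.

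Named genes were Prdm1, called list members with the smallest adjusted p and defining members. They were also the 8 genes per direction with the smallest adjusted p, the 12 higher ones at 5 CPM or more in both spleens outside marker lists, the 8 per direction furthest apart between tumor libraries, and the 6 with the smallest interaction p. Predicted genes were passed over. Other list members, such as Lpl, Ddit4, Ccr7 and Ccr8, were named after their values were seen. Values of some list members are not reported here, although the counts and medians of their lists include them.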

Additional observations from a re-analysis of the deposited data

Results flagged for a closer look

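Among the named genes, 2 had both KO tumor libraries on one side of both KO spleens and both WT tumor libraries on the opposite side of both WT spleens. No label tells whether the samples were paired between tissues. Dusp2, a phosphatase of MAP kinases, was at 48.8 and 37.1 CPM in the KO spleens and 177 and 200.2 CPM in the KO tumors, and at 59.6 and 125 CPM in the WT spleens and 15.8 and 16.3 CPM in the WT tumors. The interaction was 4.72 on the log2 scale (SE 0.58, edgeR adjusted p = 0.164). Ermn, a cytoskeletal protein, was at 18.2 and 14.8 CPM in the KO spleens and 5.03 and 2.89 CPM in the KO tumors, and at 0.299 and 0.517 CPM in the WT spleens and 10.2 and 5.49 CPM in the WT tumors. Its interaction was -6.25 (SE 0.81, edgeR adjusted p = 0.167). Neither passed the adjusted threshold, and both were named for the smallest interaction p.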

How the results depend on the processing

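Of 78 named genes followed under the alternatives, none changed direction. Since 72 of them were called, a kept direction was largely set by how they were chosen. The count of 228 changed genes was 3775 with DESeq2 on 4 libraries, 3272 with DESeq2 on 8, 3183 without a filter on low counts, 2338 with scaling to pan T cell genes, 1953 with a GC offset, 1743 with edgeR over 8 libraries and 417 with counts thinned to the smallest total. Leaving out 1 library gave 0 to 4958 genes: 0 without KO spleen 1 or 2, 3549 without KO tumor 1 and 4958 without KO tumor 2. The cause of these shifts was not tested. The interaction count of 0 was 309 with DESeq2 and 752 without a filter, and 0 when any library was left out. Pan T cell scaling moved the share of higher genes among those called from 59.6% to 94.6%, and a replicate block to 77.6%.

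The replicate numbers were shared by tumor and spleen libraries, but no label ties them to a mouse. The deviations of same-numbered libraries correlated at -0.25 over genes, and the block gave 192 genes (149 higher, 43 lower) and no interaction gene. Crossed numbers, tried after seeing the data, gave 2934 genes.

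Depth sets a floor, with 3 counts corresponding to at most 0.113 CPM in a KO library. Median log2 fold changes rose from -0.21 for transcripts under 50% in their most GC-rich 200 bases to 0.38 at 80 to 85%.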
